A study of Mus musculus with 15 samples.

Results

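Basement membranes are thin sheets of extracellular matrix that underlie epithelium and endothelium, and in the alveolar wall a shared sheet lies between both cell layers. Their scaffold is a network of type IV collagen, whose chains assemble in fixed combinations of 3. The α1 and α2 chains, encoded by Col4a1 and Col4a2, form the network found in nearly all basement membranes, while the α3, α4 and α5 chains form a more restricted network known from the glomerulus and the alveolus. The α6 chain joins α5 in a further network. Nidogens bridge type IV collagen and laminin, perlecan is a large heparan sulfate proteoglycan of the same sheet, and type XVIII collagen carries the endostatin domain at its end. The genes described here were Col4a1 to Col4a6, Col18a1 (type XVIII collagen), Nid1 and Nid2 (nidogen-1 and nidogen-2) and Hspg2 (perlecan). They were picked by gene symbol. All 10 were found among the 33340 genes of the count table, and all 10 were among the 17457 genes that passed the filter on low counts.

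Polyadenylated RNA of whole lungs of male C57BL/6 mice, aged 10 to 12 weeks by the methods for this model, was sequenced for day 0 and for 7, 14 or 21 days from a dose of 5 U/kg bleomycin given into the trachea. Bleomycin is a DNA-damaging drug that injures the alveolar epithelium and is used to produce lung fibrosis. There were 4 libraries at day 0 (titled as controls), 4 at day 7, 4 at day 14 and 3 at day 21, while the design text of the series gives 3 replicates for each day. The labels do not say whether each library came from a separate mouse, so p-values measure the spread between libraries. The treatment field of day 0 replicate 4 named bleomycin, and the library was placed by its title. Because whole lungs were sequenced, fewer cells of a type and less RNA per cell cannot be told apart. Totals lay between 15652008 and 18020661 counts per library.

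The labelled tissue was checked on 5 defining genes of lung epithelium, and all of them were detected, with summed levels of 48431 to 63597 CPM at day 0, where CPM is the read count relative to the TMM-adjusted library total. Several libraries stood apart from the others of their day. Day 21 replicate 1 had 4838 CPM over 12 alveolar type 1 markers, against 11759 and 8879 in replicates 2 and 3, and 757 CPM over the cardiac muscle markers, against 18.6 and 24.8. Cardiac muscle sums were also 644 CPM in day 7 replicate 4, against 27.3 to 57.8 in the others of that day, and 284 and 193 CPM in day 0 replicates 3 and 4, against 23.7 and 44.4 in replicates 1 and 2. Day 7 replicate 4 had 139.9 CPM over the adipocyte markers as well, against 9.49 to 29.3. Day 14 replicate 1 had 14389 CPM over 11 fibroblast and myofibroblast markers, the highest of all 15 libraries, and 2.1% of its counts were mitochondrial against 3.74% to 4.14% in the other day 14 libraries. It also had the highest macrophage sum of all 15 (4992 CPM), the lowest endothelial sum (1832 CPM) and 11112 CPM over the alveolar type 2 markers, against 24443 to 29912 in the others of its day. The mitochondrial share also differed at day 0, at 2.28% and 2.31% in replicates 1 and 2 and 4.22% and 4.04% in replicates 3 and 4, while it was 2.03% to 2.15% in all day 7 libraries. Calls of the 10 genes that changed without 1 of these libraries, or with the mitochondrial share as a covariate, are named beside the result.

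The 6 type IV collagen genes lie in 3 head-to-head pairs, in which a gene on the minus strand and a gene on the plus strand start next to each other. On mm10, Col4a1 lies at chr8:11198423-11312826 (minus strand) and Col4a2 at chr8:11312805-11449287 (plus strand). Col4a4 lies at chr1:82448423-82586849 (minus strand) and Col4a3 at chr1:82586921-82722059 (plus strand), and Col4a6 lies at chrX:141165403-141474076 (minus strand) and Col4a5 at chrX:141475385-141689234 (plus strand). Elsewhere, Col18a1 lies at chr10:77052178-77166548 (minus strand), Nid1 at chr13:13437551-13512269 (plus strand), Nid2 at chr14:19751265-19811787 (plus strand) and Hspg2 at chr4:137468769-137570630 (plus strand). The distance between the starts differed among the pairs. The first exons of Col4a1 and Col4a2 share 22 bases, 71 bases lie between the starts of Col4a4 and Col4a3, and 1308 bases lie between those of Col4a6 and Col4a5. These stretches are shown because the values of the paired genes are set side by side below. The first is chr8:11312805-11312826, the second chr1:82586850-82586920 and the third chrX:141475169-141475384, all on the plus strand, and the last is chrX:141474077-141474326 on the minus strand. Capitals mark the GC box GGGCGG, or its reverse complement CCGCCC, and the CCAAT box.
Shared by the first exons of Col4a1 and Col4a2: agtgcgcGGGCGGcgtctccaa
Between the starts of Col4a4 and Col4a3: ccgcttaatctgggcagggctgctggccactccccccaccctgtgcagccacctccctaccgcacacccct
Before the start of Col4a5: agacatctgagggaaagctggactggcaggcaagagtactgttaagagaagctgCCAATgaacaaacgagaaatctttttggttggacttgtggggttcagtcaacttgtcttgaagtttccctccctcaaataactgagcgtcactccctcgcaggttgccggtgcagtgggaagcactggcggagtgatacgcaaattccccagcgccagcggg
Before the start of Col4a6: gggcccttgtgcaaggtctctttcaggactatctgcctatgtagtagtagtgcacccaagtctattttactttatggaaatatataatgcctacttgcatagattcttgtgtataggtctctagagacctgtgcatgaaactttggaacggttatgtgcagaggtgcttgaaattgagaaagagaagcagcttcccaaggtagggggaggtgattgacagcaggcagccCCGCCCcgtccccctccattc

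The stretch between Col4a4 and Col4a3 was GC-rich (69.0%) and held neither motif, while those before Col4a5 and Col4a6 had a GC content of 52.3% and 47.6%. Promoter windows of 250 bases before to 50 bases after the start were read from RefSeq (GRCm38.p6) for 8 of the 10 genes, in 9 windows, since Col18a1 has 2. Col4a3 and Nid2 had no entry. Motifs were searched on both strands, and none of the 5 contains another. GGGCGG occurred in 7 of the 9 windows and in 35.7% of all 32851 windows, and CCAAT in 5 of 9 and 37.4%. TATAAA occurred in 0 of 9 and 13.6%, CAGACA in 1 of 9 (Col18a1) and 21.0%, and CACCTG in 1 of 9 (Col4a4) and 20.2%. The windows of Col4a1 and Col4a2 overlap, so these counts are not independent, and a match is a run of letters, not a measured binding site.

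At day 0 the α1 and α2 chains were the most abundant of the 10 genes per length of exon. Col4a1 had 121 ± 13.7 CPM per kb and Col4a2 118 ± 6.47 (SD, n = 4), which do not differ beyond their spread. Next came Col4a3 with 25.2 ± 8.61, Nid1 with 24.9 ± 2.80 and Col4a4 with 20.9 ± 2.06 CPM per kb, again within each other's spread. Col4a5 followed with 17.2 ± 0.602, Hspg2 with 13.1 ± 2.57 and Col18a1 with 8.31 ± 1.27 CPM per kb. Col4a6, with 3.20 ± 0.547, and Nid2, with 2.34 ± 0.157 CPM per kb, were the lowest. At day 21 Col4a1 had 398 ± 37.9 and Col4a2 352 ± 31.1 CPM per kb (SD, n = 3), followed by Nid1 with 59.9 ± 1.93 and Col4a3 with 42.6 ± 21.0.

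After bleomycin the ubiquitous collagen chains, type XVIII collagen, nidogen-1 and perlecan were higher at days 7, 14 and 21. Of the α3, α4 and α5 chains only α4 was called, at days 14 and 21, and the α6 chain was lower at the same 2 days. A gene was called at a Benjamini-Hochberg adjusted p under 0.05 by edgeR's quasi-likelihood test over all genes tested and a fold change over 1.5. At day 7, 5 of the 10 were called higher and 0 lower, against 8.78% and 7.36% of all genes tested. At day 14, 6 were higher and 1 lower, against 12.0% and 11.2%, and at day 21, 7 were higher and 1 lower, against 12.4% and 10.1%. The median log2 fold change of the 10 was 0.48 at day 7, 0.80 at day 14 and 1.07 at day 21, beside 0.01, 0.02 and 0.02 over all genes. Every later library lay above every day 0 library for 6 genes at day 7, 7 at day 14 and 6 at day 21, against 17.6%, 16.8% and 19.4% of all genes. The reverse held for 0, 1 and 1 genes, against 13.2%, 14.4% and 16.0%. All 3 comparisons share the day 0 libraries. Leaving out day 0 replicate 4 left 5 genes called higher at day 7, 5 at day 14 and 6 at day 21. The counts of lower genes were then 0, 1 and 0. Without day 21 replicate 1, 8 were called higher and 0 lower at day 21.

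**Figure D1:**
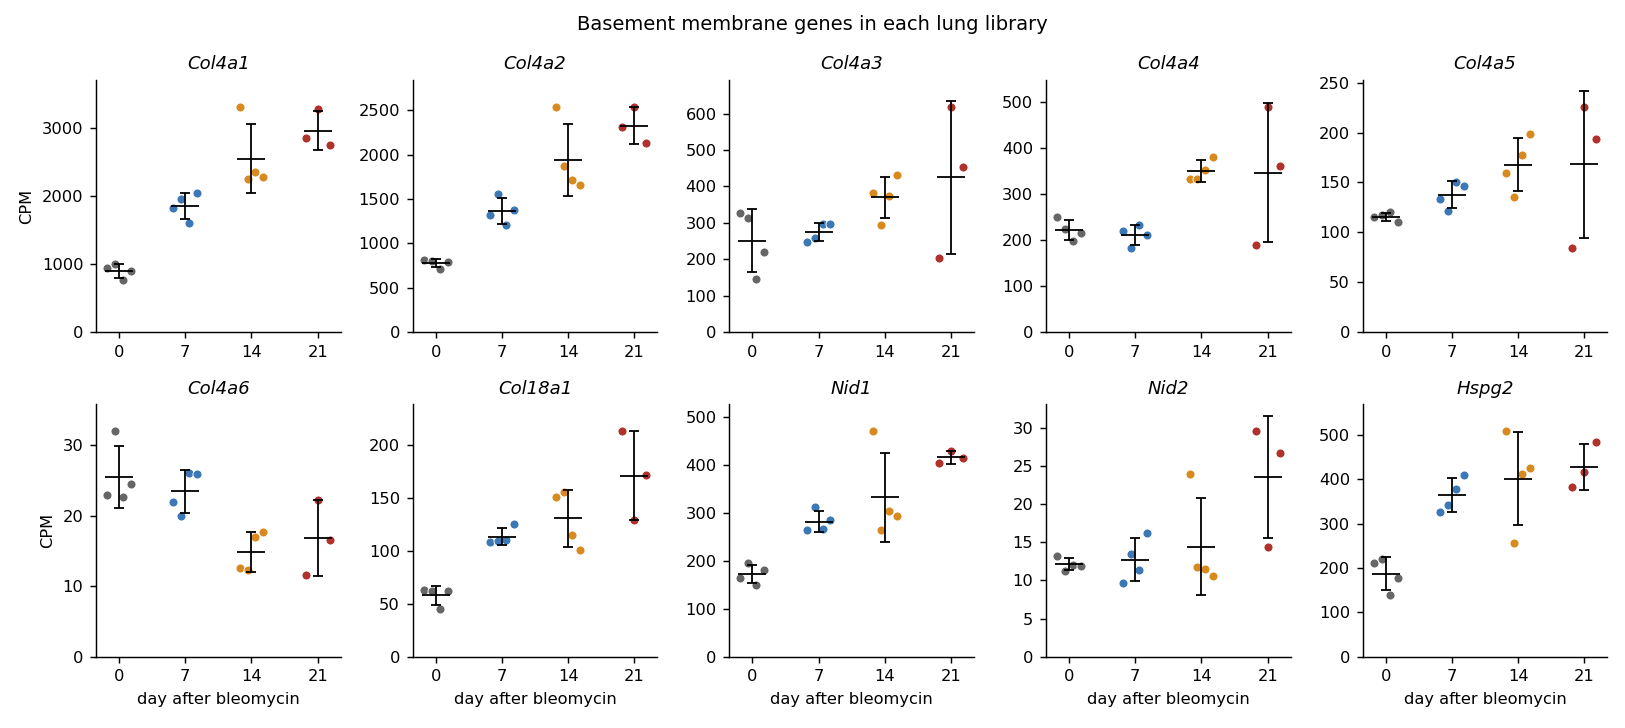
CPM of each of the 10 genes (y axis, linear from 0, own scale per panel) by day after bleomycin (x axis). Each point is 1 library, and the bar and whiskers are the mean ± SD (n = 4, and 3 at day 21). Col4a1 goes from 901 at day 0 to 2969 CPM at day 21, while Col4a6 goes from 25.5 to 16.8 CPM and the day 21 points of Col4a3, Col4a4 and Col4a5 lie far apart.

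Col4a1 and Col4a2, which encode the chains of the common network, were called higher at each day. Col4a1 had 938, 1008, 765 and 894 CPM in day 0 replicates 1 to 4 and 1823, 1964, 1600.4 and 2047 at day 7. It had 3319.5, 2262, 2353 and 2292 CPM at day 14 and 2863, 3289 and 2753 at day 21. All later libraries were above all day 0 libraries, and day 14 replicate 1 was higher than the other 3 of that day. The log2 fold change was 1.04 ± 0.15 (adjusted p = 3.36e-04) at day 7, 1.5 ± 0.16 (adjusted p = 6.90e-06) at day 14 and 1.72 ± 0.17 (adjusted p = 6.90e-06) at day 21, or 2.06-, 2.84- and 3.29-fold. Col4a2 had 808, 803, 716 and 788 CPM at day 0 and 1316, 1553, 1209.8 and 1377 at day 7. The later values were 2539, 1869, 1711 and 1663 CPM at day 14 and 2316, 2541 and 2130.0 at day 21. It was again free of overlap with day 0, and its log2 fold changes were 0.81 ± 0.15 (adjusted p = 0.00136), 1.32 ± 0.15 (adjusted p = 1.26e-05) and 1.58 ± 0.16 (adjusted p = 7.88e-06). Without day 14 replicate 1 the day 14 log2 fold changes were 1.33 for Col4a1 and 1.15 for Col4a2, both still called. The genes share 22 exon bases, or 0.295% and 0.332% of their exon length.

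The chains of the restricted network were called later or not at all. Col4a3 had 327, 314, 145 and 219 CPM at day 0, 248, 259.6, 297 and 297 at day 7, 381, 295, 375 and 430.3 at day 14 and 203, 619 and 454 at day 21. The day 0 libraries spread widely, and each later day overlapped them. Its log2 fold changes of 0.13 ± 0.28 (adjusted p = 0.765), 0.56 ± 0.28 (adjusted p = 0.143) and 0.76 ± 0.30 (adjusted p = 0.0703) were not called. Reads of Col4a3 may include those of C430014B12Rik on the opposite strand, which shares 5.65% of its exon length. Col4a4 had 251, 223, 198 and 215 CPM at day 0 and 219, 182, 231 and 211 at day 7, which overlap. It had 333, 332, 352 and 381 CPM at day 14, all above day 0, and 189, 489 and 359.9 at day 21, where replicate 1 was below every day 0 library and the other 2 above. Col4a4 was called higher at day 14, with a log2 fold change of 0.66 ± 0.20 (adjusted p = 0.0199), and at day 21, with 0.64 ± 0.21 (adjusted p = 0.0334). The day 14 call was lost without day 0 replicate 3 or replicate 4, at 0.59 and 0.62 (adjusted p = 0.0551), and the day 21 call in 9 of 16 alternatives, among them the fits without day 0 replicate 3 (0.56, adjusted p = 0.0934) or replicate 4 (0.60, adjusted p = 0.0824). Col4a5 had 115, 117, 120.4 and 111 CPM at day 0 and 133, 121, 150.1 and 147 at day 7. At day 14 it had 159, 136, 178 and 199 CPM and at day 21 84.7, 226 and 194. Days 7 and 14 lay above day 0 in every library, yet the log2 fold changes of 0.25 ± 0.21 (adjusted p = 0.408), 0.54 ± 0.21 (adjusted p = 0.0651) and 0.54 ± 0.23 (adjusted p = 0.0882) were not called.

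Day 21 replicate 1 had the lowest Col4a3, Col4a4 and Col4a5 levels of its day, together with the lowest alveolar type 1 and alveolar type 2 marker sums of all 15 libraries (8046 CPM for type 2). It also had the highest cardiac muscle sum of all 15, and the highest fibroblast (10508 CPM), macrophage (4959 CPM), pericyte (553 CPM) and smooth muscle (534 CPM) sums of its day. Its sum over the markers of Krt8-positive transitional epithelium, 1776 CPM, was the highest of its day as well. Day 14 replicate 1 had 381 CPM of Col4a3 and 333 of Col4a4. Its type 2 sum was 11112 CPM and its type 1 sum 8188 CPM. Day 14 replicate 2 had the highest type 1 sum of all 15 libraries, at 11898 CPM. It had 295 CPM of Col4a3, 332 of Col4a4 and 136 of Col4a5, the lowest of its day. Day 21 replicate 2 had the highest Col4a3 and Col4a4 levels of all 15. Its type 2 sum was 13243 CPM and its type 1 sum 11759 CPM. Without day 21 replicate 1, Col4a3, Col4a4 and Col4a5 were all called higher at day 21. The log2 fold changes were then 1.06 (adjusted p = 0.00723), 0.90 (adjusted p = 4.41e-04) and 0.82 (adjusted p = 6.88e-04). Without day 21 replicate 2, which had the highest level of each, they were 0.35 (adjusted p = 0.44), 0.27 (adjusted p = 0.336) and 0.23 (adjusted p = 0.506), none called, so that the size of the day 21 values rests on single libraries in both directions. Col4a1 and Col4a2 in day 21 replicate 1, at 2863 and 2316 CPM, lay between the other day 21 libraries. The 12 markers, of which 2 were called higher and 2 lower at day 21, summed to 8121 to 11116 CPM at day 0, 8508 to 9964 at day 7 and 8188 to 11898 at day 14. The part of these cell types in the Col4a3, Col4a4 and Col4a5 values was not tested. The calls of Col4a3 also changed with the mitochondrial share. With the share as a covariate it was called higher, at 0.72 (adjusted p = 0.037) at day 14 and 0.83 (adjusted p = 0.0251) at day 21, and within the libraries over 3.5% at day 14 its log2 fold change was 1.0 (adjusted p = 0.0223).

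**Figure D2:**
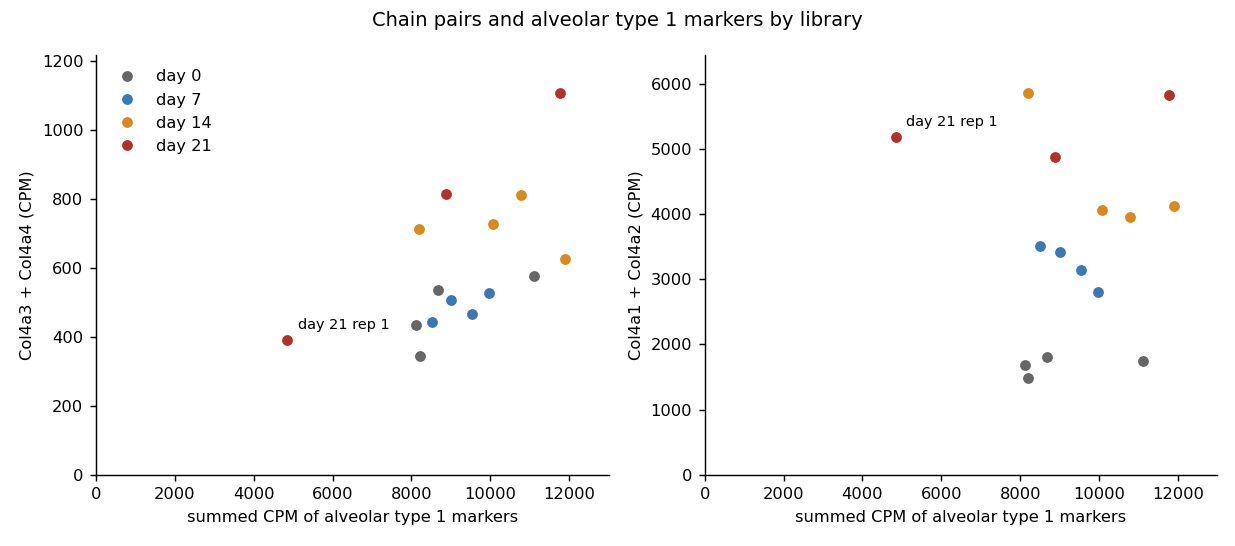
Summed CPM of Col4a3 and Col4a4 (left, y axis) and of Col4a1 and Col4a2 (right, y axis) against the summed CPM of 12 alveolar type 1 markers (x axis) in each of the 15 libraries, coloured by day. Day 21 replicate 1 lies at 4838 marker CPM and low on the left panel, and among the other day 21 libraries on the right panel. Day 14 replicate 2 has the highest marker sum, 11898 CPM, and is the lowest day 14 library on the left panel.

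Col4a6 was the 1 gene of the 10 that fell. It had 23.0, 31.9, 22.6 and 24.5 CPM at day 0 and 21.9, 19.9, 26.0 and 25.9 at day 7, which overlapped. It had 12.6, 12.2, 17.0 and 17.7 CPM at day 14 and 11.6, 22.3 and 16.6 at day 21, all below every day 0 library. Its counts were 188 to 528 per library. The log2 fold change was -0.12 ± 0.19 (adjusted p = 0.673) at day 7, -0.78 ± 0.19 (adjusted p = 0.00615) at day 14 and -0.60 ± 0.21 (adjusted p = 0.0406) at day 21. The day 14 call was lost within the libraries over 3.5% mitochondrial counts, at -0.60 (adjusted p = 0.0663). The day 21 call was lost in 6 of 16 alternatives, among them the fits without day 21 replicate 1, at -0.43 (adjusted p = 0.142), and without day 0 replicate 4, at -0.65 (adjusted p = 0.0533). Its head-to-head neighbour Col4a5 had positive log2 fold changes at all 3 days.

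**Figure D3:**
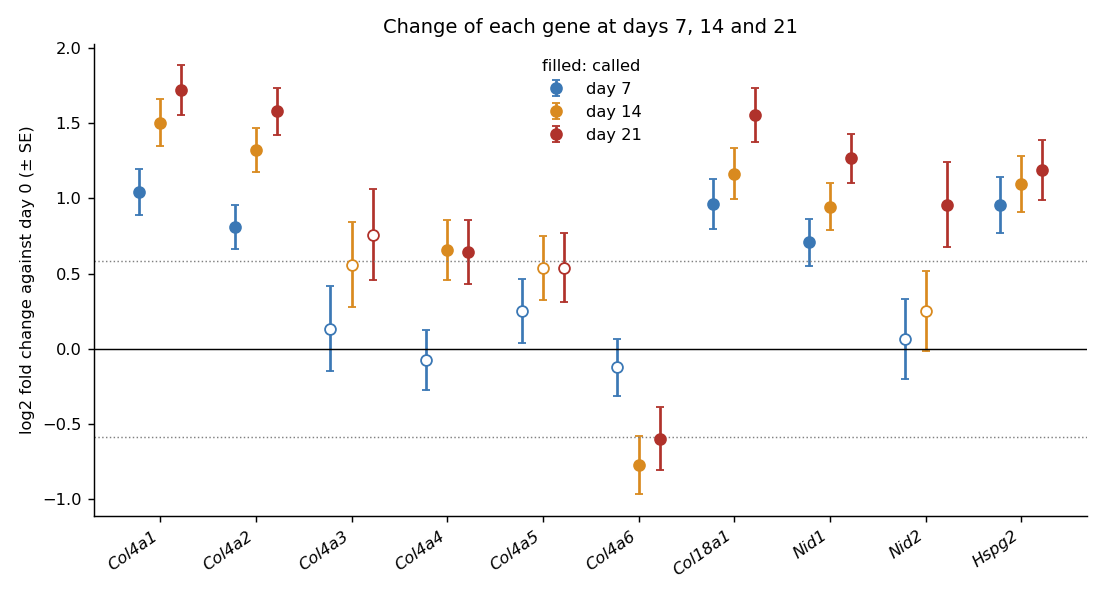
Log2 fold change against day 0 ± SE (y axis) of each gene (x axis) at days 7, 14 and 21, from edgeR. Filled points were called, open points were not, and the dotted lines mark a fold change of 1.5. Col4a1, Col4a2, Col18a1, Nid1 and Hspg2 are filled at all 3 days, Col4a6 is filled and below 0 at days 14 and 21, and Col4a3 and Col4a5 are open throughout.

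The make-up of type IV collagen mRNA held more of the α1 and α2 chains in every later library than in any day 0 library. Of the CPM per kb of all 6 chains, Col4a1 and Col4a2 together held 78.3% ± 1.53 at day 0 (SD, n = 4), 86.4% ± 2.02 at day 7, 86.5% ± 2.75 at day 14 and 88.2% ± 4.48 at day 21 (n = 3). Col4a3, Col4a4 and Col4a5 together held 20.7% ± 1.57, 13.0% ± 1.93, 13.2% ± 2.68 and 11.5% ± 4.43. The share of Col4a6 was 1.05% ± 0.134 at day 0 and 0.245% ± 0.0530 at day 21. To compare the pairs directly, the mean log2 CPM of Col4a3 and Col4a4 was set against that of Col4a1 and Col4a2. This log2 ratio was -2.13 to -1.6 in the day 0 libraries, -3.00 to -2.41 at day 7, -3.03 to -2.27 at day 14 and -3.72 to -2.39 at day 21. Every later library lay below every day 0 library. The difference of means was -0.86 on the log2 scale at day 7 (2-sided exact permutation p = 0.0286, the smallest that 4 against 4 allow), -0.76 at day 14 (exact p = 0.0286) and -1.04 at day 21 (exact p = 0.0571, the smallest that 3 against 4 allow). Adjusted over the 12 ratio tests, the exact permutation p-values were 0.0686, 0.0686 and 0.098, which miss 0.05. Without day 21 replicate 1 the day 21 difference was -0.63, and within the libraries over 3.5% mitochondrial counts the day 14 difference was -0.45.

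**Figure D4:**
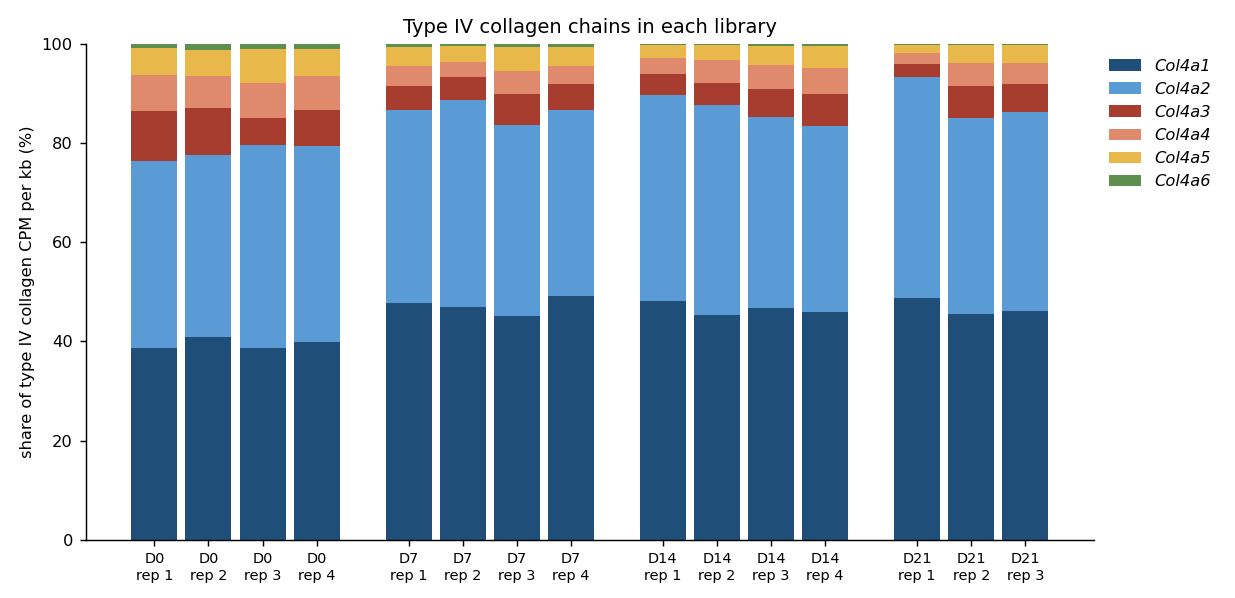
Share of each type IV collagen chain in the summed CPM per kb of the 6 chains (y axis, percent) in each library (x axis, D0 to D21 for day 0 to day 21). The 2 blue parts, Col4a1 and Col4a2, fill 76.4% to 79.6% of the bar at day 0 and 83.4% to 93.4% in the later libraries.

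Within the head-to-head pairs, Col4a2 against Col4a1 differed from day 0 by -0.24 (day 7), -0.19 (day 14) and -0.14 (day 21) on the log2 scale, with exact permutation p-values of 0.0286, 0.0571 and 0.114. Col4a4 against Col4a3 differed by -0.27, 0.04 and -0.15, with exact permutation p-values of 0.314, 0.886 and 0.743. None of these passed after adjustment over the 12 tests. The ratio of Col4a6 to Col4a5 was not among the tests, and their log2 fold changes at day 14 were -0.78 and 0.54.

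Type XVIII collagen, which lies in vascular and epithelial basement membranes, was called higher at each day. Col18a1 had 63.3, 62.6, 45.0 and 62.5 CPM at day 0 and 109, 110.0, 110.2 and 126 at day 7. It had 151, 156, 116 and 101 CPM at day 14 and 213, 129 and 172 at day 21, all above day 0. The log2 fold changes were 0.96 ± 0.17 (adjusted p = 0.0011), 1.17 ± 0.17 (adjusted p = 1.21e-04) and 1.56 ± 0.18 (adjusted p = 2.32e-05). Perlecan, which binds growth factors through its heparan sulfate chains, was higher at all 3 days. Hspg2 had 212, 220.2, 139.5 and 179 CPM at day 0 and 327, 342, 379 and 410.2 at day 7. At day 14 it had 508, 257, 413 and 426 CPM and at day 21 382, 416 and 484, with no library as low as day 0. The log2 fold changes were 0.96 ± 0.19 (adjusted p = 0.00225), 1.1 ± 0.19 (adjusted p = 4.40e-04) and 1.19 ± 0.20 (adjusted p = 4.41e-04).

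The nidogens, which link the laminin and collagen networks, differed in level. Nid1 had 165, 195, 150.0 and 181 CPM at day 0 and 265, 312, 267 and 285 at day 7. It had 470.2, 264, 304 and 294 CPM at day 14 and 403, 430.0 and 415 at day 21, every later library being above day 0. The log2 fold changes were 0.71 ± 0.15 (adjusted p = 0.00441), 0.95 ± 0.15 (adjusted p = 3.03e-04) and 1.27 ± 0.16 (adjusted p = 5.90e-05). The day 7 call did not hold in the fit that had the mitochondrial share as a covariate, at 0.47 (adjusted p = 0.0596), but held within the libraries under 2.5%, at 0.63 (adjusted p = 0.00808). Nid2 had 13.2, 11.2, 12.1 and 11.9 CPM at day 0, 9.68, 13.5, 11.4 and 16.2 at day 7, 23.9, 11.8, 11.4 and 10.6 at day 14 and 29.5, 14.4 and 26.7 at day 21. Its level was low throughout, day 14 replicate 1 was more than 2 times any other day 14 library, and day 21 replicate 2 lay just above day 0. Nid2 was called at day 21, with a log2 fold change of 0.96 ± 0.28 (adjusted p = 0.0183), and not at day 7 (0.07) or day 14 (0.25). Without day 21 replicate 1 the value was 0.73 (adjusted p = 0.11), and the call was also lost without replicate 3. The exons of Nid2 share 8.45% of their length with Rtraf on the opposite strand, and the strand setting of the counting was not given in the sources used here. The log2 ratio of Nid2 to Nid1 differed from day 0 by -0.67, -0.75 and -0.39 on the 3 later days, with exact permutation p-values of 0.0286, 0.0286 and 0.4 (adjusted 0.0686, 0.0686 and 0.48). The day 21 difference was -0.60 without day 21 replicate 1 and -0.043 without replicate 2.

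Between the later days few of the 10 genes were called, except from day 7 to day 21. From day 7 to day 14, Col4a4 alone was called higher, at 0.73 ± 0.20 (adjusted p = 0.0392), and 0 genes lower, against 2.77% and 3.23% of all genes. This call was lost in 9 of 17 alternatives, among them leaving out any of the 4 day 7 libraries and the fit with the mitochondrial share as a covariate, at 0.90 (adjusted p = 0.0975). In that fit Col4a1 (0.69) and Col4a2 (0.70) were called higher instead, both at an adjusted p of 0.0411. From day 7 to day 21, 5 genes were called higher and 0 lower, against 5.20% and 4.34%. They were Col4a1 (0.68 on the log2 scale), Col4a2 (0.77), Col4a4 (0.71), Col18a1 (0.59) and Nid2 (0.89). Col4a2 kept its call in all 16 alternatives that left the threshold as it was, Col4a1 in 13, Nid2 in 7, and Col4a4 and Col18a1 in 6. Without day 21 replicate 1, Col4a3 (0.94, adjusted p = 0.0392) and Col4a5 (0.59, adjusted p = 0.0227) were called higher too, while Col18a1 (0.39, adjusted p = 0.228) and Nid2 (0.68, adjusted p = 0.207) were not. With the covariate Nid1 was called higher (0.82, adjusted p = 0.0107), and Col4a4 (0.86, adjusted p = 0.0584) and Col18a1 (0.72, adjusted p = 0.0628) were not. Without day 7 replicate 4 the calls of Col4a4 (0.71, adjusted p = 0.0779), Col18a1 (0.64, adjusted p = 0.0569) and Nid2 (1.03, adjusted p = 0.0504) were lost. From day 14 to day 21 edgeR called 0 of the 10 and 0% of all genes in either direction. At an unadjusted p under 0.05, 2 of the 10 differed, Nid2 (0.70) and Col18a1 (0.39), as did 1714 of all genes. DESeq2 also called 0 of the 10, and 106 of all genes. Over all genes, edgeR called 127 once day 14 replicate 1 was left out and 34 with no filter on low counts. Leaving out replicate 2 or 3 of day 21 gave 3 and 24 genes, and 0 of the 10 were called in any of these fits.

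The rest of the basement membrane machinery was described by lists of genes chosen for their known roles. Their counts, and those of the cell type markers, stand beside 8.78% of all genes called higher and 7.36% lower at day 7, 12.0% and 11.2% at day 14, and 12.4% and 10.1% at day 21. Of 30 other structural components (laminins, agrin, fibulins and further matrix proteins), 5 were called higher and 1 lower at day 7, 12 and 5 at day 14, and 14 and 3 at day 21, with median log2 fold changes of 0.22, 0.35 and 0.68. Lama1, the laminin α1 chain, had 2.15 ± 0.799 CPM at day 0 and 35.9 ± 11.6 at day 14 (SD, n = 4), a log2 fold change of 4.06 ± 0.37 (adjusted p = 2.76e-06). Col15a1, the collagen most like type XVIII, rose by 2.64 ± 0.35 (adjusted p = 5.68e-05), Fbln2 (fibulin-2) by 2.31 ± 0.52 (adjusted p = 0.00322) and Col7a1, the collagen of anchoring fibrils, by 2.14 ± 0.39 (adjusted p = 7.04e-04). Fbln1 (fibulin-1) went the other way, at -1.0 ± 0.24 (adjusted p = 0.00517), as did Npnt (nephronectin), at -0.84 ± 0.20 (adjusted p = 0.00497).

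Of the 22 genes listed for folding, export and crosslinking of type IV collagen, more were called higher than lower. P3h2 and Pxdn, named after their values were seen, were called at no day. Their day 14 log2 fold changes were -0.58 and 0.13. Of 22, 8 were called higher and 0 lower at day 7, 10 and 0 at day 14, and 9 and 1 at day 21 (medians 0.39, 0.39 and 0.29). At day 14 the 4 with the largest rise were P4ha3, a prolyl 4-hydroxylase subunit, at 3.87 ± 0.40 (adjusted p = 6.90e-06), Loxl2, which crosslinks collagen IV, at 2.24 ± 0.36 (adjusted p = 2.77e-04), P3h1, a prolyl 3-hydroxylase, at 1.38 ± 0.17 (adjusted p = 2.92e-05), and Colgalt1, which glycosylates hydroxylysine, at 1.11 ± 0.13 (adjusted p = 1.78e-05). Of 13 receptors, 4 were higher and 0 lower at day 7, 5 and 1 at day 14, and 4 and 0 at day 21 (medians 0.39, 0.48 and 0.33), so that the share called lower was near or below that of all genes. Itga7 and Itga3, both laminin-binding integrin subunits, were higher at day 14, by 1.59 ± 0.25 (adjusted p = 2.55e-04) and 0.99 ± 0.16 (adjusted p = 3.17e-04). Dag1 (dystroglycan) and Sdc1 (syndecan-1) were also higher, by 0.88 ± 0.19 (adjusted p = 0.00301) and 0.65 ± 0.13 (adjusted p = 0.00135), and Itga1, a subunit of a collagen IV-binding integrin, was lower, at -0.95 ± 0.27 (adjusted p = 0.013).

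Proteases, their inhibitors and heparanase, which remodel the sheet, had the highest median change of these lists. Of 20 tested, 10 were called higher and 1 lower at day 7, 13 and 1 at day 14, and 14 and 1 at day 21 (medians 0.84, 1.3 and 1.34). Mmp12, the macrophage elastase, had 4.35 ± 0.341 CPM at day 0 and 375 ± 159 at day 14, a log2 fold change of 6.43 ± 0.56 (adjusted p = 2.17e-06). The inhibitor Timp1 rose by 4.36 ± 0.49 (adjusted p = 1.31e-05), the collagenase Mmp13 by 3.46 ± 0.41 (adjusted p = 1.94e-05) and the membrane-bound Mmp14 by 2.68 ± 0.28 (adjusted p = 6.89e-06). The gelatinase Mmp9, which cleaves collagen IV, was lower, at -1.28 ± 0.32 (adjusted p = 0.00635).

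Markers of the lung cell types moved in different directions over the same days. The 10 endothelial markers, none of them called higher at any day, had 3 called lower at day 7, 3 at day 14 and 1 at day 21. They summed to 3302 to 3796 CPM at day 0, 2308 to 2993 at day 7, 1832 to 3026 at day 14 and 2343 to 2937 at day 21. The sum was thus lower in every later library while Col4a1, Col4a2, Col18a1, Nid1 and Hspg2 were higher. Fibroblast and myofibroblast markers were called higher in 5, 7 and 7 of 11 at days 7, 14 and 21 and lower in 0, 1 and 1, with sums of 1679.6 to 2354 CPM at day 0 and 5447 to 6739, 4085 to 14389 and 5302 to 10508 at the later days. The lower gene was Tcf21, a transcription factor of lung mesenchyme, at -0.90 ± 0.25 (adjusted p = 0.0116) at day 14 and -1.39 ± 0.28 (adjusted p = 0.00161) at day 21. Pericyte markers were called higher in 1, 1 and 2 of 8 and lower in 1, 2 and 1, with sums of 269.9 to 316 CPM at day 0 and 273 to 353, 265 to 400.1 and 391 to 553 at the later days. Markers of the Krt8-positive transitional epithelium were called higher in 7, 6 and 5 of 8, summing to 628 to 777 CPM at day 0 and 1488 to 2091, 1057 to 1952 and 1209 to 1776 at the later days. Alveolar type 2 markers were called lower in 0, 5 and 7 of 8, and macrophage markers higher in 4, 6 and 5 of 7 and lower in 0, 0 and 1, the last being Siglecf, a lectin of alveolar macrophages, at -1.54 ± 0.33 (adjusted p = 0.00254). Tcf21 and Siglecf are named after their values were seen. Of the 12 alveolar type 1 markers, 2 were called higher and 1 lower at day 7 and 2 and 0 at day 14. At day 14, 1 of 6 smooth muscle and 1 of 6 mesothelial markers were called higher and 0 lower, while 4 of 5 defining epithelial, 1 of 6 cardiac muscle, 5 of 6 adipocyte and 5 of 5 red blood cell markers were called lower. Counts of 1 gene in such short lists are near the shares of all genes. The part of these cell types in the values of the 10 genes was not tested.

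The pattern of the chain pairs over the 15 libraries was compared with that of 12239 other genes of at least 5 CPM, by Pearson correlation of log2 CPM. The genes most like the mean of Col4a1 and Col4a2 were Eln (r = 0.984), which encodes elastin, Fstl1 (0.981), Adamts12 (0.980), P4ha3 (0.977) and Shc4 (0.976). Those most like the mean of Col4a3 and Col4a4 were Ndst1 (0.888), a heparan sulfate sulfotransferase, Dag1 (0.879), Agrn (0.867), which encodes agrin, Scd2 (0.861) and Ptpre (0.857). All share the day effect and the libraries, so these values only describe likeness of pattern.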

How the data were processed

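Per the labels and the study's methods, the authors trimmed reads with TrimGalore, aligned them to mm10 (GRCm38) with HISAT2 2.1.0, left out multi-mapped reads and deposited raw counts per Ensembl gene from HTSeq 0.6.0, with no normalization. The library kit does not mark strand, and the annotation release and strand setting are not given in the sources used here, so reads of overlapping genes may be shared. Symbols, coordinates and exon lengths came from GENCODE M21 on the same build, and promoter sequences from RefSeq (GRCm38.p6).

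The counts were tested with edgeR 4.0.16 (R 4.3.3): filterByExpr on the day group, TMM factors, and glmQLFit and glmQLFTest fitted to all 15 libraries together with the day group as the model. P-values were adjusted by Benjamini-Hochberg over all 17457 genes tested. Called genes had an adjusted p under 0.05 and changed over 1.5-fold, as in the study, which used DESeq2. Groups and replicate numbers came from the sample titles. The common biological coefficient of variation was 22.8%, and the total of 15652008 to 18020661 counts per library sets the counting precision. No pair of libraries within a day agreed within sampling noise. Log2 ratios between members (prior count 2) were compared by 2-sided exact permutation tests over libraries, adjusted over 12 tests. All 10 members are named. Of each list, up to 4 called genes with the largest rise and 4 with the largest fall at day 14 and a mean of at least 5 CPM are named, and for likeness the 5 genes with the highest r. Members and lists were chosen with earlier results of these data known. Alternatives were DESeq2 1.42.0, limma 3.58.1 (voom), RLE factors, total count scaling, 2 other filters, the 2 groups alone, a replicate block, the mitochondrial share as a covariate or within sets under 2.5% or over 3.5%, other thresholds, and leaving out each library in turn. The code was tested on simulated data.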

Additional observations from a re-analysis of the deposited data

Results flagged for a closer look

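In 4 of 42 groups of 4 libraries, 1 library lay far from the other 3 by Dixon's test, where chance gives about 5% of groups. Col4a1 was 3319.5 CPM in day 14 replicate 1 and 2262 to 2353 in the other 3. Nid2 was 23.9 CPM in the same library and 10.6 to 11.8 in the others. Col18a1 was 45.0 CPM in day 0 replicate 3, against 62.5 to 63.3, and 126 CPM in day 7 replicate 4, against 109 to 110.2.

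Differences between later days that passed edgeR's threshold were also looked at again. Col4a4 was higher at day 14 than at day 7 by 0.73 on the log2 scale. At day 21 against day 7, Col4a1 was higher by 0.68, Col4a2 by 0.77, Col4a4 by 0.71, Col18a1 by 0.59 and Nid2 by 0.89.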

How the results depend on the processing

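The calls of Col4a1, Col4a2, Col18a1 and Hspg2 against day 0 held in every alternative that kept the thresholds, as did those of Nid1 at days 14 and 21. Testing against the fold change of 1.5 itself (glmTreat) left 1 gene higher at day 7 (Col4a1) and lost every call of Col4a4, Col4a6 and Nid2, with 0 lower at day 14 or 21, and 0 higher at day 14 or 21 against day 7. The day 14 count of lower genes was also 0 within the libraries over 3.5% mitochondrial counts. The replicate numbers do not pair libraries (correlations of deviations of same-numbered libraries were -0.24 to 0.40). With the replicate block, 0 genes were lower at day 21 against day 0, 0 higher and 1 lower at day 14 against day 7, and 2 higher at day 21 against day 7. The 2 groups alone gave 0 lower at day 21 against day 0, 1 lower (Col4a6) at day 14 against day 7, and 3 higher at day 21 against day 7. Col4a6 made the same count of 1 lower at day 14 against day 7 with no filter, limma voom and DESeq2. For day 14 against day 7, 2 were higher with the mitochondrial covariate and 2 by adjusted p alone, and limma voom gave 2 higher at day 21 against day 7. Leaving out 1 library gave 0 to 1 lower at day 21 against day 0, 0 to 1 higher and 0 to 1 lower at day 14 against day 7, and 1 to 5 higher and 0 to 1 lower at day 21 against day 7.

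Values that changed sign were all below the threshold in both fits. At day 7, Col4a3 was -0.24 with the mitochondrial covariate, -0.23 within the libraries under 2.5% and -0.080 to 0.26 over the fits leaving out 1 library (lowest without day 0 replicate 3), and Nid2 was -0.22 with the covariate and -0.075 to 0.15 leaving out 1 (lowest without day 7 replicate 4). At day 14, Nid2 was -0.10 within the libraries over 3.5% and -0.12 to 0.38 leaving out 1 library, and against day 7 -0.17 to 0.33 (both lowest without day 14 replicate 1). Col4a5 at day 21 against day 7 was -0.0064 (without day 21 replicate 2) to 0.59. The Col4a4 to Col4a3 log2 ratio was 0.053 at day 7 within the libraries under 2.5%, -0.24 at day 14 within those over 3.5%, -0.086 to 0.23 at day 14 leaving out 1 library (below 0 without day 0 replicate 1 or 2 or day 14 replicate 2), and -0.27 to 0.044 at day 21 (highest without day 0 replicate 3). The cause was not tested. Nid2 and Col4a6, with 171 to 528 counts per library, were the least deeply counted of the 10.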
